A study of Mus musculus with 6 samples.

Results

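Small heat shock proteins are chaperones built around an α-crystallin domain. They hold unfolding proteins in a soluble state and hand them to Hsp70, which refolds them with energy from ATP or passes them on for breakdown. Bag3 is the co-chaperone that links the small heat shock protein Hspb8 to Hsp70 and steers damaged filament proteins into autophagy. Heart muscle makes many of these proteins, and they gather at the Z-disc and on desmin filaments. Mutations of CRYAB, HSPB8 and BAG3 cause human myopathies.

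The account covers 10 genes that were picked by name: the small heat shock proteins Hspb1, Hspb2, Hspb3, Hspb6, Hspb7, Hspb8 and Cryab, the co-chaperone Bag3, the inducible Hsp70 gene Hspa1a and the constitutive Hsp70 gene Hspa8. All 10 were measured, among 18193 genes in all, and all 10 lay above the 25th percentile of gene means. They had 20 probe sets with a single gene symbol, and the brightest of a gene over the 6 arrays stands for it.

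The samples were total RNA from ventricular tissue of mice aged 8 weeks, measured on 6 short-oligonucleotide arrays. Wild-type mice gave 3 arrays, and 3 were from caAkt mice, whose hearts express a constitutively active Akt kinase from a cardiac transgene; hearts of this model grow and go on to fail. The sources used here gave no promoter for the transgene, no strain and no sex. Whether arrays are from different hearts is not in the labels, so p-values reflect spread that may be technical only.

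Values are log2 signals made by RMA, a method that corrects background, equalises the distributions of the arrays and merges the probes of each set. They compare a gene between arrays, not a gene with another gene. The probe set for Akt1 with the highest mean rose from 9.79 to 10.18 in wild-type to 15.08 to 15.16 in caAkt arrays, which matches the labels. Its other probe sets had log2 fold changes of -0.29, 0.08 and -0.21. The correlation over all probe sets was 0.995 to 0.997 between arrays of one genotype and 0.983 to 0.985 between genotypes. The tissue carried its defining markers: the mean log2 value of 10 cardiomyocyte genes was 14.67 to 14.82 in wild-type and 14.57 to 14.63 in caAkt arrays, with 4 of 10 called lower. Macrophage markers went from 8.61 to 8.86 up to 9.71 to 9.96 (7 of 8 higher, 1 lower) and fibroblast markers from 11.31 to 11.56 up to 12.69 to 12.84 (7 of 8 higher). Endothelial markers stood at 10.29 to 10.38 and 10.05 to 10.20 (3 of 8 lower), and smooth muscle and pericyte markers at 10.24 to 10.43 and 10.23 to 10.58 (1 of 6 higher). By the same rule, given below, 16.1% of all genes were called higher and 12.4% lower. The part of these shifts in the results on chaperones was not tested. In ventricular tissue, fewer cells of a type and less RNA per cell cannot be told apart.

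Most of the 10 genes were higher in caAkt hearts. Hspa1a showed the largest rise, 4.13-fold from a dim wild-type signal, followed by Hspb1 with 1.78-fold and Hspb8 with 1.43-fold, while Hspa8, Hspb2, Hspb7 and Cryab rose by 1.20-fold to 1.32-fold. Bag3 was the exception, lower by 1.17-fold at the edge of the threshold, and Hspb3 and Hspb6 were not called. A gene was called at a Benjamini-Hochberg adjusted p under 0.05 in limma, adjusted over all genes. By this rule 7 of 10 rose, against 16.1% of all genes tested, and 1 of 10 fell, against 12.4%. The genes were chosen with earlier results of these data known, so their counts and median are a description, not independent evidence. The median log2 fold change (caAkt minus wild-type) was 0.33 over the 10 genes and -0.04 over all genes. The 3 values of caAkt lay entirely above those of wild-type for 7 of 10 genes (21.4% of all genes) and entirely below for 1 (21.1%).

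**Figure D1:**
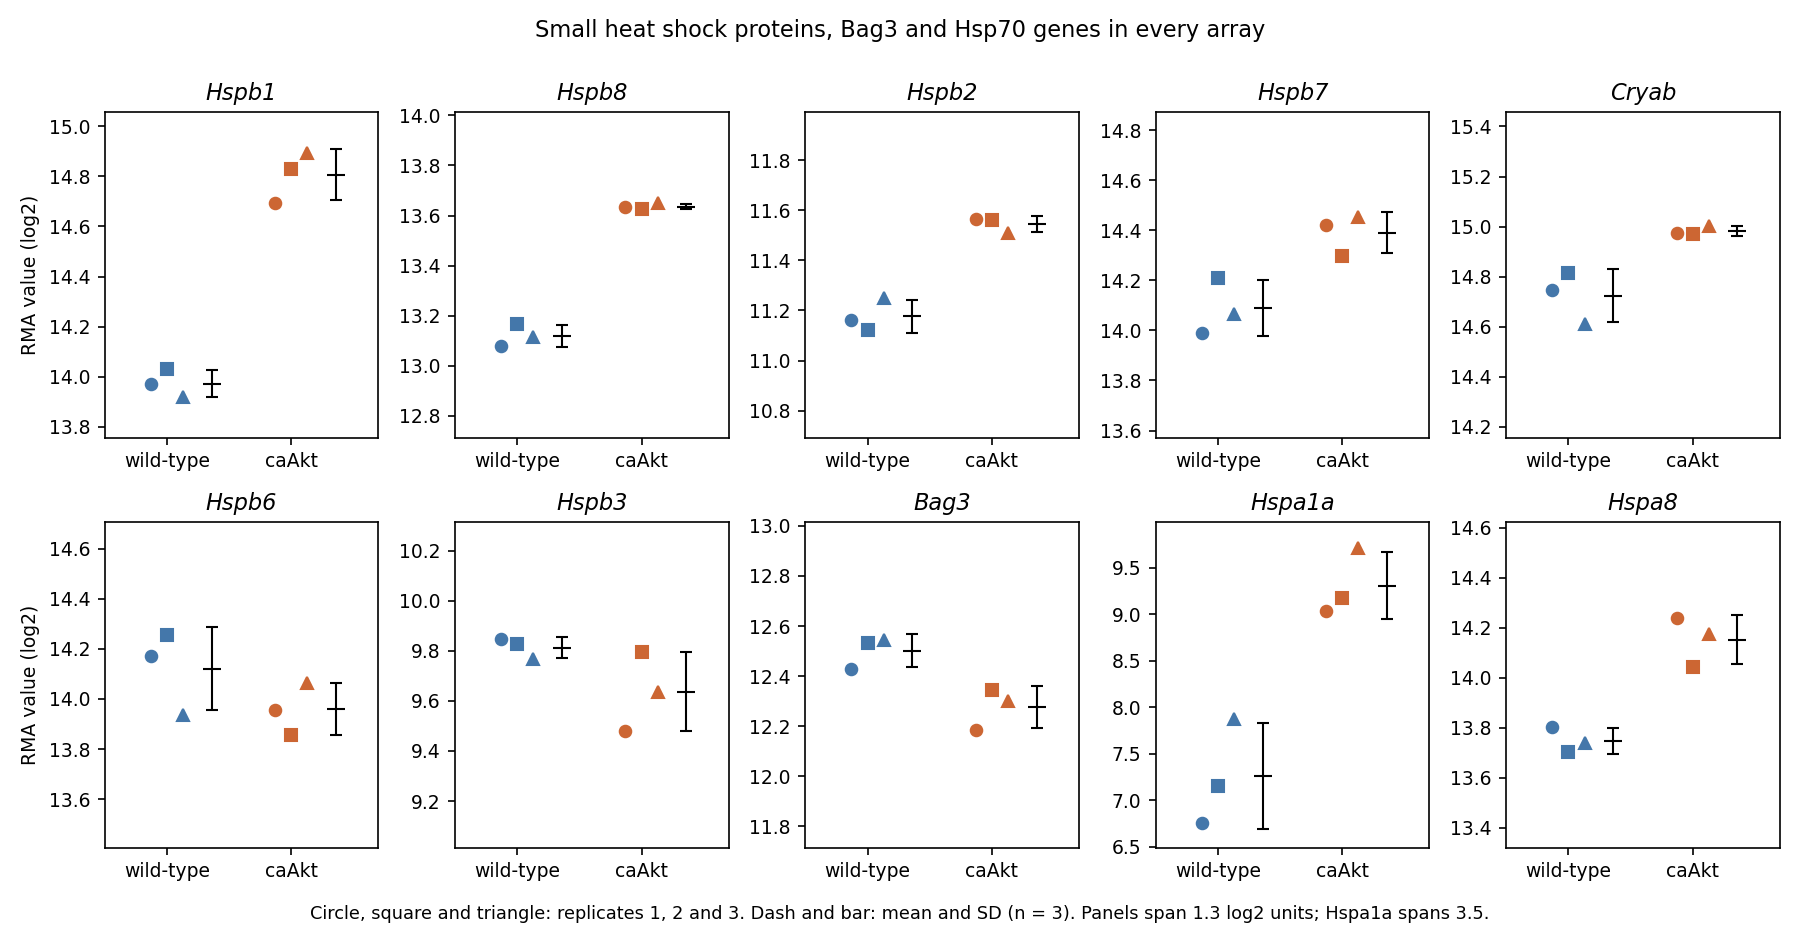
RMA values (log2) of the 10 genes in each array, wild-type in blue and caAkt in orange; circle, square and triangle are replicates 1, 2 and 3, and the dash with its bar is the mean with the SD (n = 3). Groups are apart in 8 panels and overlap for Hspb3 and Hspb6; Hspa1a has a wider axis than the other panels.

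Heat shock genes are classically switched on by heat shock factor 1, which binds inverted repeats of the letters GAA in their promoters. The promoters are shown as a description, and whether this factor had a part in the changes was not tested. RefSeq windows (build GRCm38.p6) from 250 bases before to 50 bases after each annotated start were matched by symbol for 7 of the 10 genes, with 8 windows in all, 2 of them for Hspb6. A pair of facing repeats, GAANNTTC, which reads the same on both strands, occurred in 6 of these 8 windows, belonging to Hspb1, Hspb3, Hspb6, Hspb8, Bag3 and Hspa1a. Over all windows of this length its share was 7.86%. The pair facing outward, TTCNNGAA, which also reads the same on both strands, occurred in 0 of the 8 windows and 8.52% of all. The longer form of 3 repeats, GAANNTTC followed by NN and GAA, searched on both strands and overlapping both pairs, was in 0 of the 8 and 0.603% of all. A match is a run of letters and does not show binding, and windows without one may hold elements elsewhere. Stretches below end at the base before the annotated start or are cut to 30 bases around the match, and capitals mark GAANNTTC.
Hspb1, chr5:135887669-135887918, plus strand: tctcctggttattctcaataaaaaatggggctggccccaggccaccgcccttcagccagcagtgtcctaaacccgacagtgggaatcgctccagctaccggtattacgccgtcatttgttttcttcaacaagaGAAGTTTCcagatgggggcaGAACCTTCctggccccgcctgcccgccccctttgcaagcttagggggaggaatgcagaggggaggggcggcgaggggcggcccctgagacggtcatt
Hspa1a, chr17:34972157-34972406, minus strand: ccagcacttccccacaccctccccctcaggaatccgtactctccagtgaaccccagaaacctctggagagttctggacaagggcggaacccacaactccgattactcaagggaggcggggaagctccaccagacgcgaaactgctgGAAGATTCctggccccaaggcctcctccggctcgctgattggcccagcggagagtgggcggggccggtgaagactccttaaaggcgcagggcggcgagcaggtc
Hspb8, chr5:116422844-116422873, minus strand: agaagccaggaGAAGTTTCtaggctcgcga
Bag3, chr7:128523603-128523632, plus strand: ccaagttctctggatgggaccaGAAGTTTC
Hspb6, chr7:30553170-30553199, plus strand: aagtaattattGAAGTTTCtaaataaggaa
Hspb3, chr13:113663882-113663911, minus strand: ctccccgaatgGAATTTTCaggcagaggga
Hspb1 held 2 matches, whose first bases lie 117 and 97 bases before the annotated start. In Hspa1a the match began 104 bases before the start and in the second window of Hspb6 120 bases before it. Those of Hspb8 and Bag3 lay just after the start, beginning at base 3 and base 43, and that of Hspb3 lay farthest upstream, at 224 bases. Genes with the match include 3 that rose (Hspb1, Hspb8, Hspa1a), Bag3, and both that were not called (Hspb3, Hspb6). Hspb7, whose window held no match, rose as well. Hspb2, Cryab and Hspa8, which also rose, had no window, so whether they hold a match was not examined.

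Hspb1, known as Hsp25 in mouse, guards actin filaments and is among the most inducible small heat shock proteins. Its values were 13.97, 14.03 and 13.92 in wild-type and 14.70, 14.83 and 14.89 in caAkt arrays. Every caAkt array stood above every wild-type array, with 0.67 on the log2 scale between the nearest. The log2 fold change was 0.83 ± 0.08 (SE, adjusted p = 5.58e-05 in limma), larger in size than that of 94.9% of all genes. A second probe set agreed in size, at 0.97 ± 0.08. The call held without any single array, at 0.79 to 0.89.

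Hspb8, the partner of Bag3 in clearing misfolded filament proteins, was the tightest of the risers. It measured 13.08, 13.17 and 13.11 in wild-type and 13.63, 13.63 and 13.65 in caAkt arrays, and the groups did not overlap. The log2 fold change was 0.52 ± 0.06 (SE, adjusted p = 0.000345 in limma), and 0.50 to 0.54 when single arrays were left out. Its dimmer probe sets gave 0.67, which was called among all probe sets, and 0.28, which was not (adjusted p = 0.0550).

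Hspb2 and Cryab are neighbours on chromosome 9, where the RefSeq table places Hspb2 inside the span of Cryab. Hspb2, which binds the myotonic dystrophy kinase, had values of 11.16, 11.12 and 11.25 in wild-type and 11.56, 11.56 and 11.51 in caAkt arrays. It rose by 0.37 ± 0.07 (SE, adjusted p = 0.00316 in limma) and was called without any single array. Cryab, the αB-crystallin that protects desmin and titin, had 14.75, 14.82 and 14.61 in wild-type and 14.97, 14.97 and 15.00 in caAkt arrays. The groups were apart, but the gap between the nearest arrays was smaller than the range within wild-type. Its log2 fold change was 0.26 ± 0.07 (SE, adjusted p = 0.0280 in limma).

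The rise of Cryab was the least settled of the small heat shock proteins called higher. Only without wild-type replicate 2 was it still called. Without wild-type replicate 1 or 3 the adjusted p was 0.0556 or 0.0719, and without caAkt replicate 1, 2 or 3 it was 0.0661, 0.0678 or 0.0776. A second bright probe set gave 0.12 ± 0.10 and was not called. The dimmest, at 4.32 in wild-type, gave -0.17 and was not called, and the mean of all 3 was 0.07 (adjusted p = 0.504). The highest values on any array were 15.32 to 15.45, so the brightest probe set of Cryab stood near the top of the scale. What that does to its fold change was not tested. The within-array difference of Cryab minus Hspb2 was 3.55 ± 0.17 (SD, n = 3) in the wild-type group and 3.44 ± 0.05 in the caAkt group (exact permutation p = 0.4, two-sided), and the groups overlapped.

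Hspb7, a cardiac and muscle member that keeps filamin and thin filaments in order, had 13.99, 14.21 and 14.07 in wild-type and 14.42, 14.30 and 14.45 in caAkt arrays. Wild-type replicate 2 and caAkt replicate 2 lay closest, and the groups did not overlap. The log2 fold change was 0.30 ± 0.08 (SE, adjusted p = 0.0218 in limma), and the remaining probe sets had 0.40 and 0.38, both called as rows of their own. The call was lost without wild-type replicate 1 (adjusted p = 0.0725) or 3 (0.0557) and without caAkt replicate 1 (0.0700) or 3 (0.0760).

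Hspb6 and Hspb3 went against the other small heat shock proteins in sign without passing the test. Hspb6, or Hsp20, is a chaperone phosphorylated downstream of cAMP signalling. It spanned 13.93 to 14.26 in wild-type and 13.86 to 14.06 in caAkt arrays, with a log2 fold change of -0.16 (95% interval -0.38 to 0.06, adjusted p = 0.252 in limma). Hspb3, the partner of Hspb2 in muscle, spanned 9.77 to 9.85 and 9.48 to 9.80. Its log2 fold change was -0.18 (95% interval -0.38 to 0.02, adjusted p = 0.173 in limma). For both genes the interval's upper bound lies under the log2 fold change of any of the small heat shock proteins that rose, each by its brightest probe set. Differences between these genes were not tested, and the second bright probe set of Cryab had a 95% interval of -0.11 to 0.34. Of the 7 small heat shock proteins, 5 rose, 0 fell and 2 were not called, and 0 were lower at an unadjusted p under 0.05 in limma. The remaining genes of the family, Cryaa of the lens, and Hspb9 and Odf1 of the testis, had values of -0.15, 0.19 and -0.16, and none passed the test in either direction, also at an unadjusted p under 0.05 (0 of 3).

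Fitted as rows of their own, 11 of the 20 probe sets were called higher, against 13.8% of all probe sets, and 0 lower, against 9.65%. In this fit, Bag3 was lower at an unadjusted p only.

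**Figure D2:**
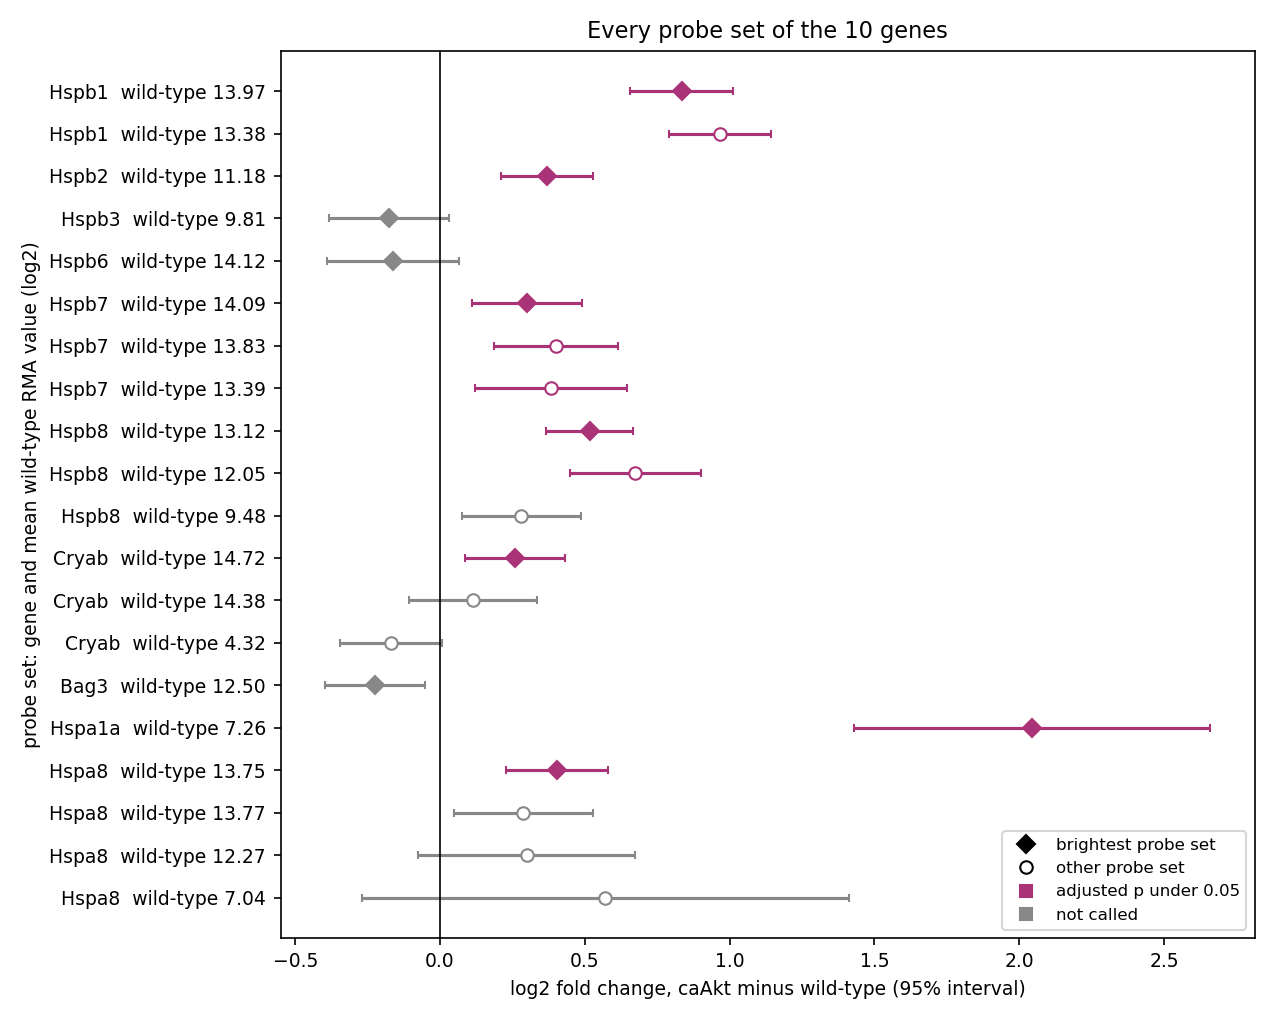
Log2 fold change (caAkt minus wild-type) with its 95% interval for all 20 probe sets, labelled by gene and mean wild-type value; diamonds are the brightest probe sets, and purple marks calls with all probe sets as rows. Of the 20, 11 were called higher and 0 lower, and 16 lie right of 0; Bag3 is grey because its adjusted p in that fit was 0.0650.

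Bag3 was the 1 gene of the 10 called lower. It had 1 probe set, with values of 12.43, 12.53 and 12.54 in wild-type and 12.18, 12.34 and 12.30 in caAkt arrays. All caAkt arrays were below all wild-type arrays, but the nearest arrays of the groups were 0.08 apart. The log2 fold change was -0.22 ± 0.07 (SE, adjusted p = 0.0493 in limma). This call is marginal: it was lost without any single array. The adjusted p just reached 0.05 without wild-type replicate 1, was 0.146 or 0.111 without wild-type replicate 2 or 3, and 0.147, 0.0607 or 0.0870 without caAkt replicate 1, 2 or 3. The direction was the same in each of these fits, at -0.26 to -0.18.

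The distance between Bag3 and Hspb8 was compared within each array; only its shift between genotypes can be read, not its size. Bag3 minus Hspb8 was -0.65, -0.63 and -0.57 in wild-type and -1.45, -1.28 and -1.35 in caAkt arrays. The balance of the signals of these partners shifted by -0.74 on the log2 scale, and the groups did not overlap. The exact permutation p was 0.1 (two-sided, 0.15 after adjustment over the 3 pairs compared), which is the smallest that 3 against 3 arrays allow and does not pass the test.

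Hspa1a, the stress-inducible Hsp70, had 6.76, 7.15 and 7.88 in wild-type and 9.03, 9.17 and 9.72 in caAkt arrays. It varied more within groups than any of the other 9 genes, yet the lowest caAkt array stood above the highest wild-type array. The probe set was dim in wild-type hearts: replicate 1 lay just below the median of all values on its array (6.78). The files used here give no detection call, so whether that signal was above background was not tested and the fold rests on it. The log2 fold change was 2.04 ± 0.27 (SE, adjusted p = 0.000450 in limma), exceeding in size that of 99.5% of all genes. Wild-type replicate 3 was the highest of its group. Without it the log2 fold change was 2.35, and without wild-type replicate 1 it was 1.79, called in both cases. Hspa1b, which encodes a nearly identical protein and lies beside Hspa1a and Hspa1l on chromosome 17, had 8.42, 8.45 and 9.32 in wild-type and 10.51, 10.44 and 10.90 in caAkt arrays. There too wild-type replicate 3 was highest. The near identity of these genes makes it uncertain which of them each probe set reports.

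Hspa8, the constitutive Hsc70 that works with Bag3 and Hspb8, had 13.80, 13.70 and 13.74 in wild-type and 14.24, 14.04 and 14.17 in caAkt arrays. The groups were apart by more than the range of either. Its log2 fold change was 0.40 ± 0.08 (SE, adjusted p = 0.00333 in limma), and it was called without any single array. The 3 further probe sets of Hspa8 had 0.29, 0.30 and 0.57, none of them called (adjusted p = 0.0828, 0.235 and 0.314 with all probe sets as rows). The inducible and the constitutive gene were compared within each array: Hspa1a minus Hspa8 was -6.49 ± 0.59 (SD, n = 3) in the wild-type group and -4.85 ± 0.38 in the caAkt group. The groups did not overlap, but the shift of 1.64 had an exact permutation p of 0.1 (two-sided, 0.15 after adjustment over 3 pairs), the smallest possible, and did not pass the test.

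**Figure D3:**
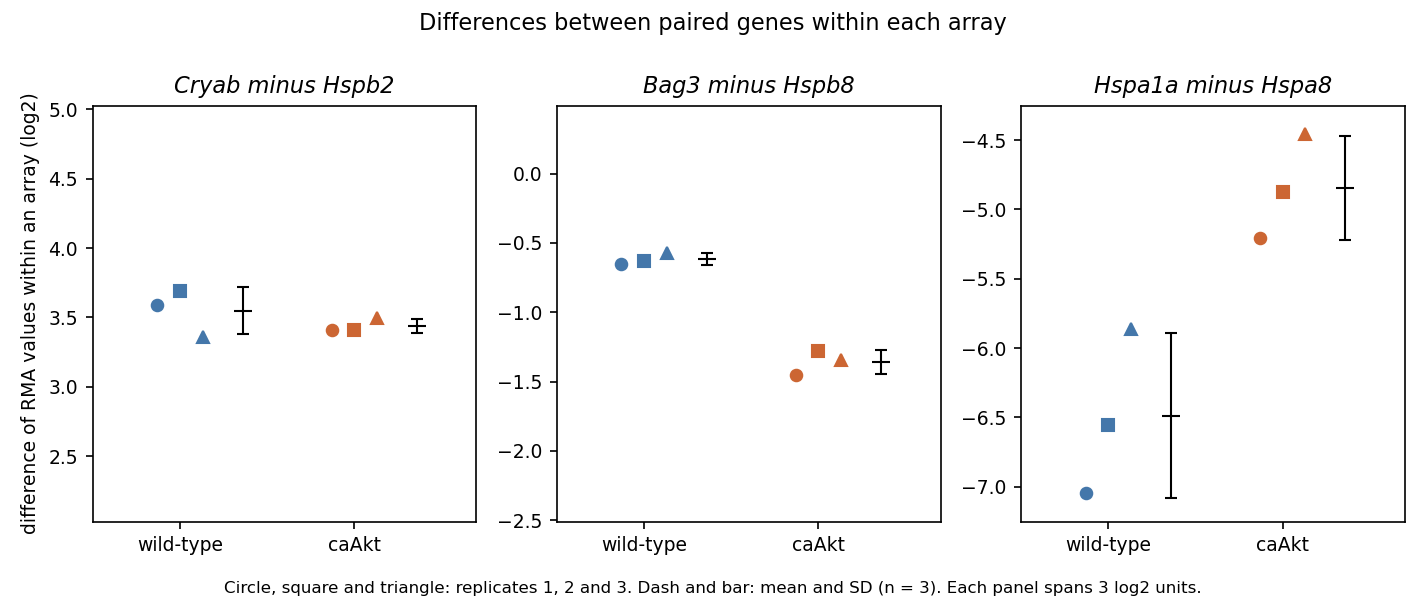
Difference of RMA values within each array (log2) for Cryab minus Hspb2, Bag3 minus Hspb8 and Hspa1a minus Hspa8; symbols are replicates 1, 2 and 3, and the dash with its bar is the mean with the SD (n = 3). The groups overlap for Cryab minus Hspb2 and are apart for the other pairs.

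The wider chaperone network was compared through lists of related genes, also chosen with earlier results of these data known. Over the 59 measured genes of these lists, 21 were called higher and 5 lower, with a median log2 fold change of 0.12 against -0.04 over all genes. The counts called in this list and in each list below stand against 16.1% of all genes called higher and 12.4% called lower. Those shares are for the adjusted p. The share of all genes at an unadjusted p under 0.05 is not given here, so list counts at that level have no such comparison. Of 8 other Hsp70 and Hsp110 genes, 6 rose and 0 fell, with a median of 0.54; at an unadjusted p under 0.05 in limma 7 were higher and 0 lower. Hspa1b rose by 1.89 ± 0.23 and Hspa1l, the form best known from testis, by 1.46 ± 0.08. Which of Hspa1a, Hspa1b and Hspa1l each probe set reports is uncertain, so these counts may hold the same signal more than once. Hsph1, the Hsp110 that recharges Hsp70 with ATP, rose by 0.95 ± 0.08, and its relative Hspa4l by 0.61 ± 0.07. Without single arrays 5 or 6 of the list rose, the microsomal Hspa13 (0.37, adjusted p up to 0.122) being the one lost.

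J proteins bring clients to Hsp70. Of 11 in the list 3 rose and 1 fell, with a median of 0.03. Dnajb5 fell by 0.93 ± 0.09 and Dnaja4 rose by 0.60 ± 0.08. Dnajb6, mutated in a limb-girdle muscular dystrophy, rose by 0.27 ± 0.07 but lost its call when wild-type replicate 2 was left out (adjusted p = 0.0620). Dnajb14, anchored in the endoplasmic reticulum membrane, rose by 1.28 ± 0.38. That call was kept only without wild-type replicate 3, whose 7.97 was far above the 6.61 and 6.13 of the other wild-type arrays; the adjusted p was 0.107 or 0.103 without wild-type replicate 1 or 2, and 0.112, 0.115 or 0.0656 without caAkt replicate 1, 2 or 3. Dnajb1, a standard heat shock gene, stood at -0.07 ± 0.14 on the log2 scale (adjusted p = 0.738) and is named here after its value was seen.

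In the Hsp90 list 4 of 9 rose and 2 fell, with a median of 0.01. Hsp90aa1, the inducible Hsp90, rose from 12.06 ± 0.22 (SD, n = 3) to 13.08 ± 0.19, a log2 fold change of 1.02 ± 0.13. The immunophilins that compete for Hsp90 moved in opposite directions: Fkbp5 rose by 1.86 ± 0.27 and Fkbp4 fell by 1.16 ± 0.06. The mean of all probe sets gave smaller sizes, 0.91 for Fkbp5 and -0.61 for Fkbp4, both called, and the plain probe set of Fkbp4 gave -0.29. Stip1, the adaptor between Hsp70 and Hsp90, rose by 0.29 ± 0.07. Ahsa1 (0.25, or 0.03 and not called as the mean of its probe sets) and the myosin chaperone Unc45b (-0.27) are named after their values were seen. Ahsa1 lost its call when wild-type replicate 2 (adjusted p = 0.0575) was left out, or caAkt replicate 3 (0.0513). Unc45b lost its own when wild-type replicate 1 (0.0777) or 2 (0.0725) was left out, or caAkt replicate 2 (0.0923) or 3 (0.0796). Hsp90ab1 and Ptges3 were not analysed here.

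**Figure D4:**
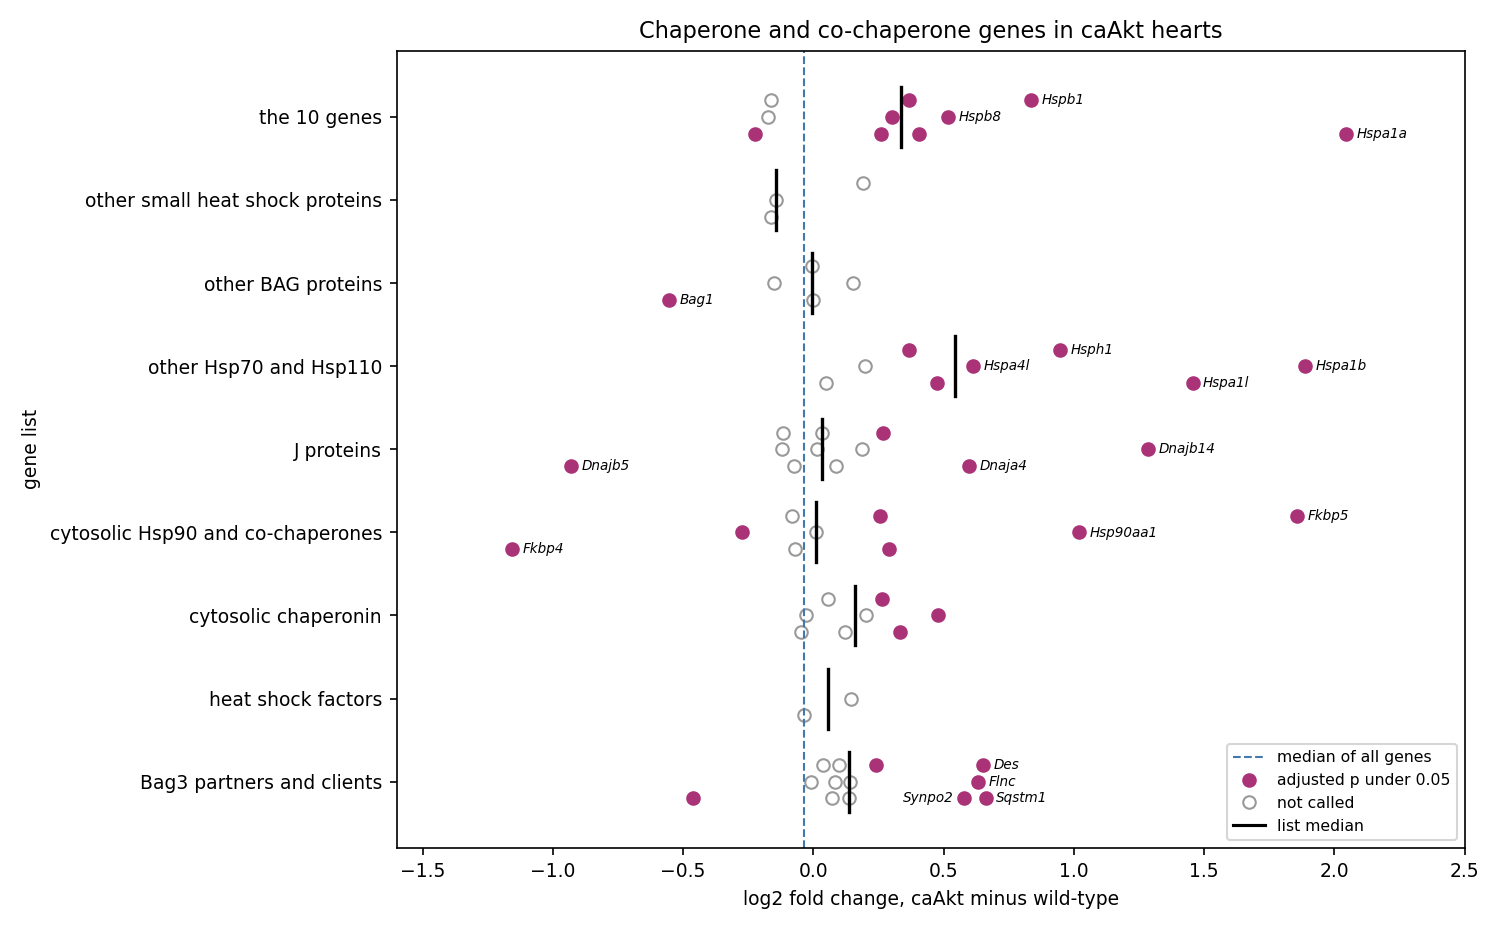
Log2 fold change (caAkt minus wild-type) of each measured gene by list; filled purple points were called at an adjusted p under 0.05, open points were not, black bars are list medians and the dashed line is the median of all genes. The 10 genes and the other Hsp70 and Hsp110 genes have medians of 0.33 and 0.54, and the other lists lie between -0.15 and 0.16.

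Among the other BAG proteins, 1 of 5 fell and 0 rose, with a median of -0.005; at an unadjusted p under 0.05 in limma 2 were lower and 0 higher. The gene called was Bag1, an Hsp70 exchange factor, which fell by 0.55 ± 0.09 (adjusted p = 0.00142 in limma). Of 13 partners and clients of Bag3, 5 rose and 1 fell, with a median of 0.14, against 16.1% and 12.4% of all genes. The autophagy receptor Sqstm1 (p62) rose by 0.66 ± 0.07, the filament protein Des by 0.65 ± 0.09, and Flnc, the filamin that Bag3 helps to clear, by 0.63 ± 0.09. Synpo2, which recruits the autophagy membrane to Bag3, rose by 0.58 ± 0.08. Sqstm1 had a plain probe set at -0.07 that was not called, and the mean of all its probe sets was 0.30. Means over probe sets were 0.41 for Des and 0.36 for Synpo2, both called. The last 2 called genes are named after their values were seen. Capzb, a capping protein of actin, had 0.24, was not called with plain probe sets (-0.05) or after renewed quantile normalization, and lost the call when replicate 1 or 2 of either genotype was left out (adjusted p up to 0.0986). The exchange factor Rapgef2 fell by 0.46 ± 0.10. The ubiquitin ligase Stub1 (CHIP), which tags clients in the Bag3 complex, had a value of 0.07 and the Z-disc actinin Actn2 -0.01, and both were not called.

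The calls differed in how much they rested on single arrays. Hspb1, Hspb8, Hspa1a, Hspb2 and Hspa8 were called in each of the 6 fits that left out an array. Hspb7 was called in 2 of these fits, Cryab in 1 and Bag3 in 0. With 5 arrays 5 to 7 of the 10 genes rose and 0 fell.

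**Figure D5:**
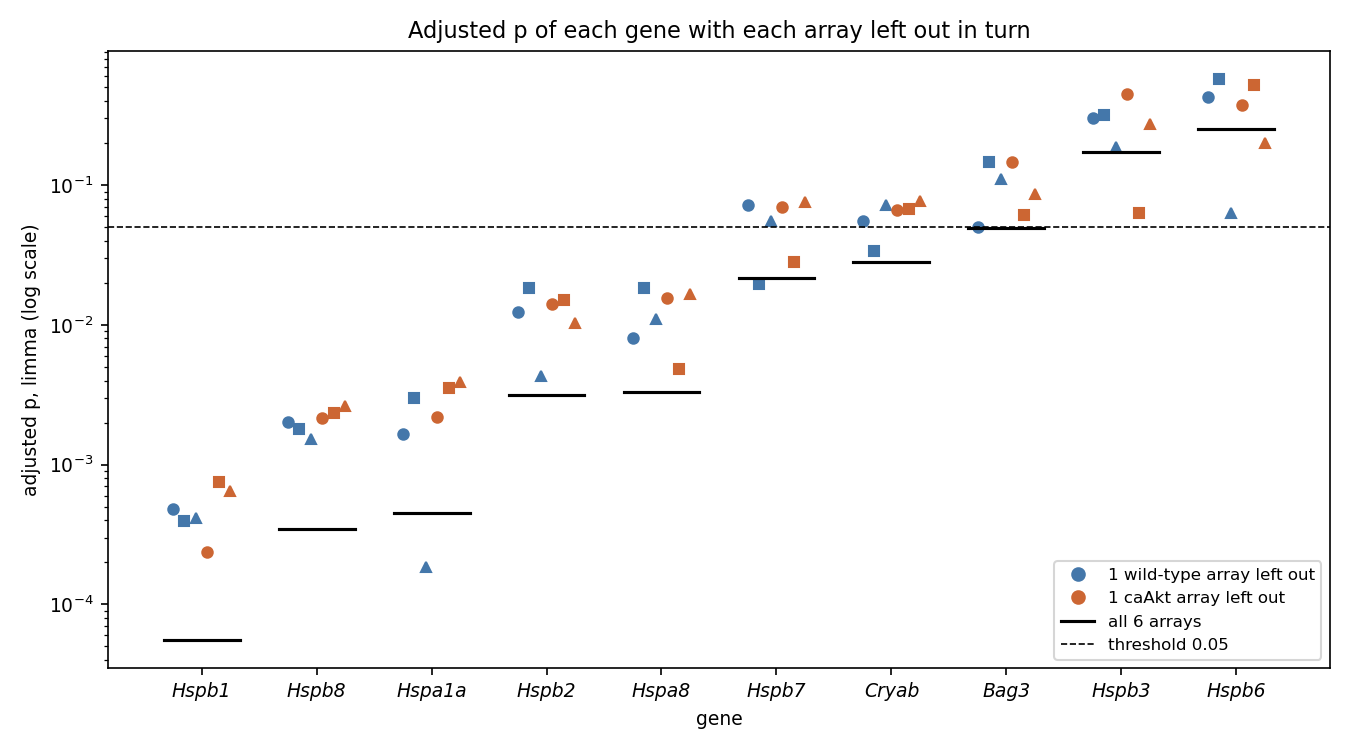
Adjusted p (limma, log scale) of the 10 genes with all 6 arrays (black dash) and with each array left out; blue points leave out a wild-type and orange points a caAkt array, and the dashed line is 0.05. The first 5 genes stay under the line in all fits, and Bag3 touches or passes it in each.

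Over the 6 arrays, among 9096 genes in the upper range of mean level, the patterns most like that of Hspa1a were those of Ltbr, Slc6a6 and Cx3cl1, each with a Pearson r of 0.996. For Bag3 they were Psmg4 (0.997), B3galt5 (0.994) and C2cd2 (0.990). These correlations are a description over 6 arrays that share the difference between genotypes.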

How the data were processed

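Total RNA of 6 ventricular samples was extracted with Trizol, purified on columns and labelled with biotin, per the labels' protocols. The deposited log2 values were produced by the authors with RMA (affy package), per the submitters' processing notes, versions unstated. Of 45101 probe sets, 64 were controls, 34945 had 1 symbol in the platform annotation, 932 several and 9160 none. Genotypes were compared by linear models in R 4.3.3 (limma 3.58.1, default eBayes, 4 residual degrees of freedom), with Benjamini-Hochberg adjustment over 18193 genes; steps were tested on simulated data. All members were named with every probe set, and up to 4 called genes of smallest p per list. Members and lists were chosen with earlier results of these data known. Pair differences used exact permutation tests. Alternatives covered eBayes settings, probe set rules, a dim filter, scaling, array weights, a replicate block, the threshold and leaving out arrays. Arrays have no read depth, and their number limits the precision. Promoter windows came from RefSeq, GRCm38.p6.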

Additional observations from a re-analysis of the deposited data

How the results depend on the processing

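The count of members called higher was 7, and 3 of 8 with only plain probe sets, where Hspb1 and Hspb2 were not represented, Cryab rested on its dim probe set (log2 fold change -0.17, opposite in sign and not called) and Hspa8 was not called (0.57, adjusted p = 0.285 in limma); it was 6 with the mean of probe sets, 5 at a threshold of 0.01 and 5 to 7 without single arrays. The count called lower was 1 (Bag3), and 0 with only plain probe sets, renewed quantile normalization, median centring, the replicate block, all probe sets as rows, a threshold of 0.01, and without any single array; 0 to 2 members were lower at an unadjusted p under 0.05 in these limma fits. Over its alternatives the adjusted p of Bag3 was 0.0256 to 0.147. All genes called numbered 5183, 8178 with all probe sets as rows (of 34945) and 3255 at a threshold of 0.01, and 3984 to 4827 without single arrays. Genes called in the chaperone lists numbered 26, 17 at a threshold of 0.01 and 18 to 24 without single arrays. Pair differences kept their sign: Cryab minus Hspb2 was -0.20 to -0.04, Bag3 minus Hspb8 -0.78 to -0.70 and Hspa1a minus Hspa8 1.36 to 1.95 without single arrays. With the mean of probe sets Cryab minus Hspb2 was -0.30 (exact permutation p = 0.1). The labels state no pairing of samples by replicate number. The correlation of deviations between arrays of the same number was 0.27, 0.03 and -0.12, which does not settle whether they share a batch. With the replicate block 7 members were higher, 0 lower and 5141 genes called. Of all called genes 56.5% were higher, but 49.6% after renewed quantile normalization. Causes of these changes were not tested. The number of arrays limits precision; the smallest change called among the 10 genes was -0.22 on the log2 scale.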

Other observations

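The cytosolic chaperonin is a ring that folds actin and tubulin. Of its 8 subunits, 3 rose and 0 fell, with a median log2 fold change of 0.16; at an unadjusted p under 0.05 in limma 4 were higher and 0 lower. Cct8 rose by 0.48 ± 0.07, Cct3 by 0.33 ± 0.09 and Tcp1 by 0.26 ± 0.08. The plain probe sets of Cct8 and Cct3 gave 0.01 and -0.08 and were not called. Without wild-type replicate 2 or any 1 caAkt array, Cct3 was not called (adjusted p = 0.0546 to 0.0599), and of the fits on 5 arrays Tcp1 was called in 1, the fit lacking wild-type replicate 1 (otherwise up to 0.103). The heat shock factors Hsf2 (0.15, adjusted p = 0.309) and Hsf4 (-0.03, adjusted p = 0.820) were not called in limma, with 0 of 2 at an unadjusted p under 0.05; Hsf1 was not analysed here.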
